A study of Saccharomyces cerevisiae with 40 samples.

Results

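Autophagy is the breakdown of cytoplasm in the vacuole, and 10 of its genes in budding yeast (Saccharomyces cerevisiae) were followed across strains, media and a herbicide treatment. The genes are ATG1 (YGL180W), ATG13 (YPR185W), ATG29 (YPL166W), ATG9 (YDL149W), ATG41 (YPL250C), ATG14 (YBR128C), ATG8 (YBL078C), ATG7 (YHR171W), ATG19 (YOL082W) and ATG34 (YOL083W), out of 6661 transcripts in the data. These 10 genes were chosen by measured values of these same libraries, and which values were used is not stated. Their differences between groups are therefore given as a description with standard errors and no test, and tests are read only for 59 other autophagy genes listed by role and for ICY1, the paralog of ATG41. The 59 were listed from general knowledge but with earlier results of these data known, and the 10 are not among them. Their p-values and counts are read with that limit. RNA-seq gave 40 libraries, 5 replicates in each of 8 groups. The groups cross a haploid laboratory strain of S288c background (GSY147) or the vineyard strain RM11 with minimal medium (YM) or YM with tryptophan, tyrosine and phenylalanine added (WYF), and with no treatment or Cr41. Cr41 is Credit41, a commercial glyphosate formulation, and treated cells had it for 90 min at 0.25% glyphosate as the labels give the dose. Each background is a single strain, the labels do not say whether replicates were separate cultures, and p-values measure the spread between these libraries, which may be technical. Sequencing lane 2 held the YM libraries and lane 3 those in WYF, and an effect of lane cannot be told apart from one of medium.

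In starved yeast, a kinase complex built around Atg1 and Atg13 starts the double membrane that encloses cytoplasm. Membrane carrying Atg9 is brought to the site, a lipid kinase complex with Atg14 marks it, and Atg8 is attached to the growing membrane through the activating enzyme Atg7. In growing cells much of the same machinery runs the cytoplasm-to-vacuole targeting (Cvt) pathway, in which receptors such as Atg19 bring hydrolases to the vacuole. Glyphosate blocks the shikimate pathway, from which yeast makes tryptophan, tyrosine and phenylalanine. Transcription of autophagy genes in yeast is known to respond to amino acid and nitrogen supply through factors such as Gcn4, Gln3, Ume6, Msn2 and Msn4.

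The stretches around the start codons of ATG41, ATG1 and ATG8 are shown because these 3 had the largest log2 fold changes with Cr41 in S288c in YM, and because ATG8 holds the most matches to the motifs of these factors. Each covers 250 bases before the start codon and the first 50 bases of the coding region, read on the coding strand from the R64 genome sequence of RefSeq (S288c). Capitals mark the start codon and each match to TGACTC (Gcn4), GATAAG (Gln3 and Gat1), GCCGCC (Ume6) or AGGGG (Msn2 and Msn4) on either strand. The windows are chrXVI:74670-74969 (minus strand) for ATG41, chrVII:159815-160114 (plus strand) for ATG1 and chrII:80682-80981 (minus strand) for ATG8.
ATG41: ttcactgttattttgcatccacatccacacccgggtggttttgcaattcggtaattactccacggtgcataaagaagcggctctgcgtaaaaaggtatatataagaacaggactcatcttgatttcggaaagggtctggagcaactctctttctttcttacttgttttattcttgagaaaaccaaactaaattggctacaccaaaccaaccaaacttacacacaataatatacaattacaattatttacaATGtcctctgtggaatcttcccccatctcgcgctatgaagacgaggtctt
ATG1: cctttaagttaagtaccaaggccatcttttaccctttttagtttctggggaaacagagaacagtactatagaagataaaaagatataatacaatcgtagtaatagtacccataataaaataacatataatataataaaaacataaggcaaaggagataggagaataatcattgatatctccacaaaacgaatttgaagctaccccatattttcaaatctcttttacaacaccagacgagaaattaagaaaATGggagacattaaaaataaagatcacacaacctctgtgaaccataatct
ATG8: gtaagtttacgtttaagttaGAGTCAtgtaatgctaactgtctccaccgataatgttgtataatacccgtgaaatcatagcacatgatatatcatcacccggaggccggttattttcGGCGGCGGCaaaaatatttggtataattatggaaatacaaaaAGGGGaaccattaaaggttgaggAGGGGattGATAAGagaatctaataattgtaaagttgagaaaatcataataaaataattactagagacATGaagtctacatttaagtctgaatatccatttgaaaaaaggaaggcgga

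The windows of ATG41, ATG1, ATG7 and ATG14 held none of the 4 motifs, which says only that these letters are not in these 300 bases. The ATG8 window held all 4 motifs, with a TGACTC match on the opposite strand 230 bases before the start codon, GATAAG at 60 bases, AGGGG at 91 and 68 bases, and overlapping GCCGCC matches on the opposite strand at 133 and 130 bases. TGACTC was found for 3 of the 10 genes (ATG8, ATG13 and ATG29) and in 7.96% of 6020 annotated promoters of the same length. The ATG13 match, on the opposite strand, begins 5 bases before the start codon and takes in its first base. GATAAG was found for 4 of the 10 (ATG8, ATG9, ATG19 and ATG29) and in 14.6% of all promoters. GCCGCC was found for 2 of the 10 (ATG8 and ATG19) and in 5.12% of all promoters. AGGGG was found for 5 of the 10 (ATG8, ATG9, ATG19, ATG29 and ATG34) and in 21.6% of all promoters. In the windows of the 10 genes no match of one motif overlapped a match of another, and a match describes the sequence and not a bound site.

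The coding regions of the 10 genes were 354 to 2994 bases long, and the transcript length in the data equalled the annotated coding length for each. No stretch of 31 bases of any of the 10 occurs elsewhere in the R64 genome, so ATG19 and its relative ATG34 share none, and the estimated counts of all 10 were whole numbers in every library. ATG29 (chromosome XVI, 237338 to 237979) overlaps SET6, on the other strand, by 24 bases at its end, and the other 9 overlap no annotated gene. RM11 reads were counted against S288c transcripts, so a difference between strains may include reads lost to sequence differences. All 10 genes passed the filter on low counts in all 12 comparisons.

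Libraries held 4224350 to 7866044 estimated counts. To look for single libraries out of place, 39 transcripts were chosen from these libraries by strain label, for a high median in S288c and near absence in RM11. They summed to 28603 CPM or more in every S288c library and to at most 844 CPM in RM11. The choice by label sets most of this difference, so it is no independent test of the labels. A few libraries stood apart. Replicate 5 of RM11 in YM with Cr41 deviated from its group median by 0.36 on the log2 scale on average over genes, against 0.10 to 0.13 in the other 4. SED1 made up 4.82% of its counts, against 7.94% to 8.81% in its treated fellows and 5.10% to 5.46% in untreated RM11 in YM. Why this treated library was nearer the untreated ones in SED1 was not tested. Replicate 5 of untreated RM11 in YM had BTN2 at 25.3 CPM, and its 4 fellow replicates at 206 to 266 CPM. Replicate 2 of untreated RM11 in WYF held the 844 CPM of S288c transcripts, against at most 196 CPM in the other RM11 libraries. Replicate 4 of untreated S288c in WYF deviated from its group median by 0.27, against 0.12 to 0.18 in the other 4, and had the lowest ATG41 of its group. Leaving out each of these libraries in turn moved the log2 value of a member by at most 0.13 between any 2 groups. It turned the sign of ATG8 with Cr41 in RM11 in YM (0.03 to -0.04 without treated replicate 5) and of ATG1 (-0.01 to 0.02) and ATG8 (0.04 to -0.01) between the untreated strains in WYF without RM11 replicate 2, and of ATG8 there without S288c replicate 4 (-0.0025). The part of these libraries in the differences of changes was not tested on its own. The change with Cr41 in RM11 in YM was not fitted with both replicates 5 left out. The S288c libraries in YM with Cr41 also spread, with deviations of 0.27, 0.24 and 0.22 in replicates 4, 5 and 1. Replicates 2 and 3 of that group were at 0.16 and 0.12. Leaving out single libraries of S288c in YM gave log2 fold changes with Cr41 of 4.55 to 4.65 for ATG41 and 2.96 to 3.07 for ATG1.

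ATG41, a small protein that binds Atg9 and is needed for autophagy at its full rate, covered the widest range of the 10 genes. Levels are given here as CPM, the counts scaled to a common library size after TMM normalization over all 40 libraries. In S288c in YM it stood at 243, 232, 212, 243 and 231 CPM in the 5 untreated libraries. With Cr41 it stood at 4898, 5584, 5772, 6036 and 6408 CPM. Every treated library was far above every untreated library, and the ratio of the means was 24.7. The log2 fold change was 4.59 ± 0.07 (SE), the 16th highest of 5716 genes. ATG41 took 0.501% ± 0.0244 (SD, n = 5) of all counts in these treated libraries and 0.0239% ± 0.000913 in the untreated ones.

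The same gene moved far less in the other 3 settings. In S288c in WYF, ATG41 stood at 132, 138, 134, 105 and 154 CPM untreated and at 405, 401, 416, 436 and 419 CPM with Cr41. The groups did not overlap, and the log2 fold change was 1.63 ± 0.09, or 1.55 ± 0.06 without untreated replicate 4. In RM11 in YM it stood at 463, 449, 575, 535 and 293 CPM untreated and at 532, 576, 639, 727 and 495 CPM with Cr41. These groups overlapped, the lowest untreated value being that of replicate 5, and the log2 fold change was 0.36 ± 0.15, or 0.23 ± 0.12 without that library and 0.41 ± 0.14 without treated replicate 5. In RM11 in WYF it stood at 89.9, 95.9, 106, 113 and 99.3 CPM untreated and at 61.8, 66.3, 80.3, 99.6 and 58.5 CPM with Cr41. Here 4 of the 5 treated libraries lay below every untreated one, and the log2 fold change was -0.45 ± 0.12, or -0.46 ± 0.13 without untreated replicate 2. Bulk libraries give the mean of a culture, so fewer cells with a transcript and less of it per cell cannot be told apart.

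Ordered by mean level, ATG41 was lowest in RM11 in WYF with Cr41 (73.3 ± 16.9 CPM, SD, n = 5), followed by untreated RM11 in WYF (101 ± 8.84 CPM), untreated S288c in WYF (133 ± 17.8 CPM) and untreated S288c in YM (232 ± 12.7 CPM). S288c in WYF with Cr41 (415 ± 13.6 CPM), untreated RM11 in YM (463 ± 108 CPM) and RM11 in YM with Cr41 (594 ± 91.5 CPM) came next. S288c in YM with Cr41 was highest, at 5740 ± 563 CPM. Of the 7 pairs of neighbours in that order, 4 overlapped in their libraries. The top group stood 9.66-fold above the next and 78.3-fold above the lowest.

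**Figure D1:**
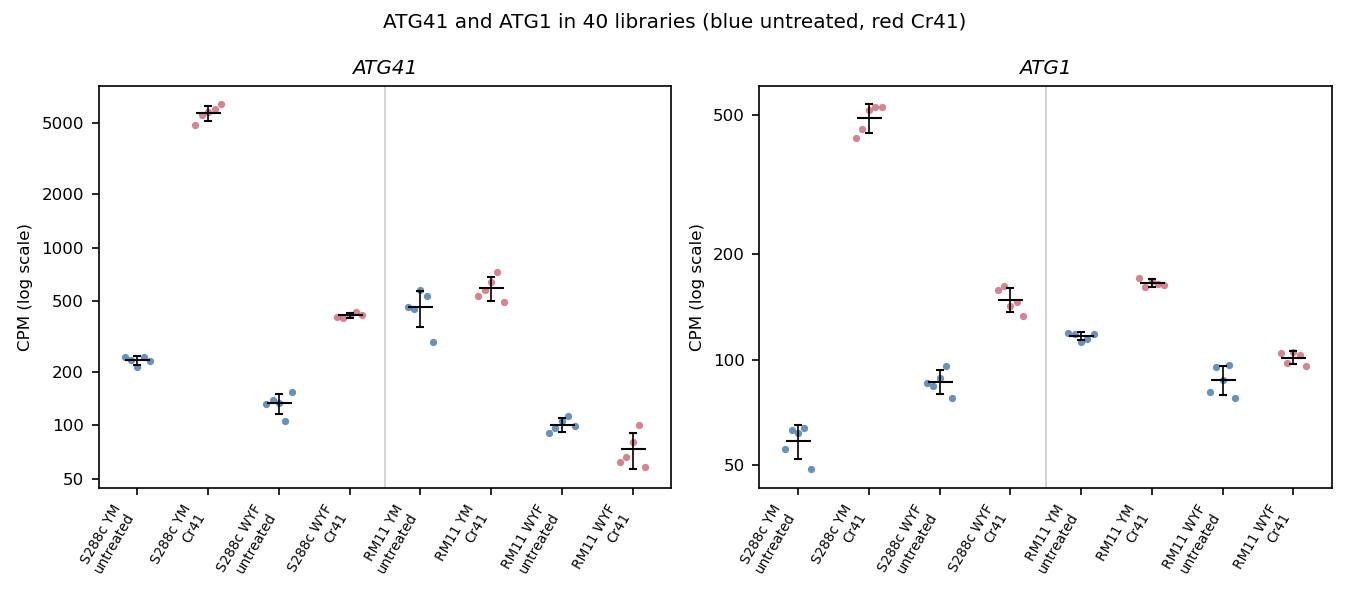
CPM of ATG41 (left) and ATG1 (right) on log scales in each of 40 libraries, with 5 points per group, a bar at the group mean and error bars of 1 SD. S288c in YM with Cr41 is the highest group in both panels, at 5740 CPM for ATG41 and 490 CPM for ATG1.

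ATG1, the kinase that starts autophagy, had its highest level in the same group as ATG41. It stood at 55.6, 63.3, 61.7, 63.9 and 48.7 CPM in untreated S288c in YM and at 429, 454, 517, 527 and 525 CPM with Cr41. No treated library came near an untreated one, and the log2 fold change was 3.02 ± 0.09, an 8.36-fold ratio of means. In S288c in WYF it stood at 86.1, 84.2, 88.8, 96.2 and 77.7 CPM untreated and at 158, 162, 143, 146 and 134 CPM with Cr41. These groups did not overlap either, and the log2 fold change was 0.75 ± 0.07. In RM11 in YM it stood at 120, 119, 112, 115 and 119 CPM untreated and at 171, 161, 168, 164 and 164 CPM with Cr41, again without overlap and with a log2 fold change of 0.50 ± 0.06. In RM11 in WYF it stood at 81.2, 95.3, 87.5, 96.7 and 78.0 CPM untreated and at 105, 97.7, 106, 103 and 96.0 CPM with Cr41. The lowest treated value fell just under the highest untreated one there, and the log2 fold change was 0.22 ± 0.07.

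ATG13 and ATG29 encode partners of Atg1, the former its regulatory subunit and the latter a part of the scaffold that gathers the complex when cells starve. In S288c in YM, ATG13 stood at 107, 119, 133, 100 and 88.5 CPM untreated and at 251, 248, 229, 169 and 187 CPM with Cr41. The groups did not overlap, treated replicates 4 and 5 were the lowest of their group, and the log2 fold change was 0.95 ± 0.14. In the other settings ATG13 had log2 fold changes of -0.06 ± 0.08 (S288c in WYF), 0.31 ± 0.09 (RM11 in YM) and -0.12 ± 0.08 (RM11 in WYF). Untreated ATG13 had the same mean in both strains in YM, at 109 ± 17.1 CPM in S288c and 109 ± 13.5 CPM in RM11. ATG29 was among the lowest of the 10 in CPM, with 6.25 to 20.7 CPM over all libraries. It stood at 8.54, 9.48, 9.47, 13.1 and 6.85 CPM in untreated S288c in YM and at 16.2, 14.9, 18.6, 20.5 and 20.7 CPM with Cr41. Both S288c comparisons of ATG29 were without overlap, with log2 fold changes of 0.89 ± 0.17 in YM and 0.79 ± 0.16 in WYF, and both RM11 comparisons overlapped (0.30 ± 0.15 and 0.50 ± 0.16).

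ATG9 encodes the membrane protein whose vesicles seed the autophagosome, and ATG14 the subunit that directs the phosphatidylinositol 3-kinase complex to autophagy. ATG9 stood at 89.7, 91.9, 97.1, 102 and 73.9 CPM in untreated S288c in YM and at 137, 123, 122, 126 and 136 CPM with Cr41. The groups did not overlap, with a log2 fold change of 0.47 ± 0.08, and it was 0.39 ± 0.09 in S288c in WYF, 0.23 ± 0.07 in RM11 in YM and 0.16 ± 0.07 in RM11 in WYF. Unlike ATG41 and ATG1, ATG9 had its highest mean in S288c in WYF with Cr41 (175 ± 18.5 CPM). ATG14 stood at 8.24, 11.8, 11.5, 6.22 and 4.76 CPM in untreated S288c in YM and at 14.2, 11.1, 12.2, 19.4 and 18.7 CPM with Cr41. These groups overlapped, with a log2 fold change of 0.78 ± 0.26, the largest standard error of the 10 genes in this comparison. Its other log2 fold changes were 0.37 ± 0.16 (S288c in WYF), -0.12 ± 0.14 (RM11 in YM, or -0.25 ± 0.11 without treated replicate 5) and 0.02 ± 0.15 (RM11 in WYF).

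ATG8 encodes the ubiquitin-like protein that coats the autophagosome and binds cargo receptors, and ATG7 the enzyme that activates it. In S288c in YM, ATG8 stood at 20.5, 28.3, 23.3, 29.4 and 20.7 CPM untreated and at 57.1, 56.3, 62.0, 59.0 and 77.8 CPM with Cr41. Treated replicate 5 was above the other 4, no treated library overlapped an untreated one, and the log2 fold change was 1.31 ± 0.13. ATG8 in S288c in WYF went from 28.5 ± 2.05 CPM to 41.3 ± 3.11 CPM, also without overlap (log2 0.51 ± 0.08). In RM11 the groups overlapped in both media, with log2 fold changes of 0.03 ± 0.09 in YM (-0.04 ± 0.08 without treated replicate 5) and 0.26 ± 0.11 in WYF. ATG7 had a narrow range, from 6.67 to 21.7 CPM over all libraries. Its log2 fold change with Cr41 was -0.14 ± 0.21 in S288c in YM, -0.37 ± 0.16 in S288c in WYF, -0.12 ± 0.15 in RM11 in YM (-0.03 ± 0.13 without treated replicate 5) and 0.25 ± 0.12 in RM11 in WYF, and treated and untreated libraries overlapped in all 4. Its counts were 41 to 174 per library, where sampling noise adds to the spread.

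ATG19 and ATG34 lie near each other on chromosome XV and encode related receptors for the cargo of the Cvt pathway, the former used in growing cells and the latter under starvation. ATG19 stood at 164, 168, 155, 187 and 126 CPM in untreated S288c in YM and at 209, 228, 252, 265 and 301 CPM with Cr41. It was the one member without overlap in all 4 settings, with log2 fold changes of 0.61 ± 0.11 (S288c in YM), 0.30 ± 0.06 (S288c in WYF), 0.37 ± 0.07 (RM11 in YM) and 0.35 ± 0.06 (RM11 in WYF). In RM11 in YM, ATG19 stood at 109, 104, 116, 103 and 116 CPM untreated and at 141, 136, 139, 132 and 162 CPM with Cr41. Here too the highest value is that of the replicate 5 that stood apart, and without it the log2 fold change was 0.32 ± 0.05. ATG34 was lower than ATG19 in every group also per length, at 12.4 to 28.7 TPM against 60.6 to 161 TPM (group means of the deposited TPM, which corrects for transcript length). Its log2 fold changes were 0.60 ± 0.14 in S288c in YM, 0.49 ± 0.09 in S288c in WYF, 0.20 ± 0.10 in RM11 in YM and 0.20 ± 0.07 in RM11 in WYF.

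**Figure D2:**
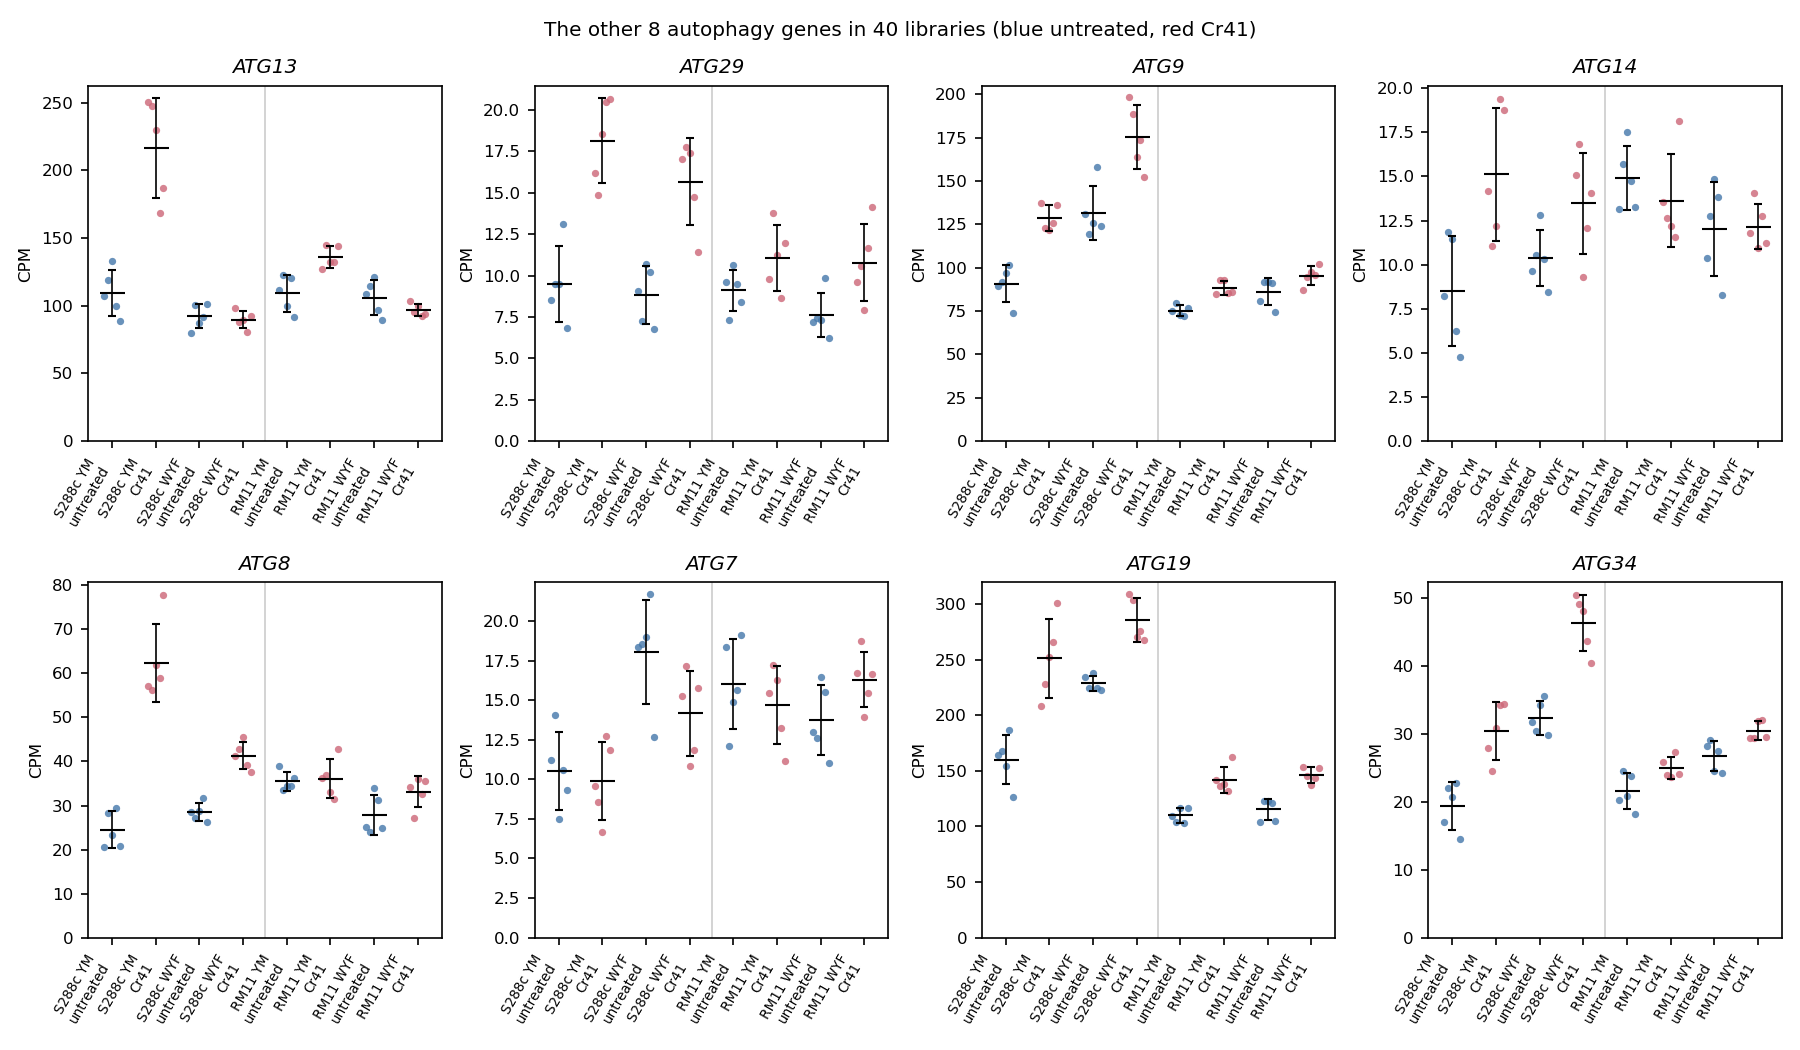
CPM of ATG13, ATG29, ATG9, ATG14, ATG8, ATG7, ATG19 and ATG34 in each of 40 libraries, on linear axes from 0, with 5 points per group, a bar at the mean and error bars of 1 SD. ATG13, ATG29, ATG14 and ATG8 have their highest mean in S288c in YM with Cr41, ATG9, ATG19 and ATG34 in S288c in WYF with Cr41, and ATG7 in untreated S288c in WYF.

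Per length, ATG41 was the most abundant of the 10 transcripts in each of the 8 groups, from 197 ± 45.9 TPM in RM11 in WYF with Cr41 to 15063 ± 781 TPM in S288c in YM with Cr41. ATG8 and ATG19 came next in each group, with group means of 93.3 to 206 TPM and 60.6 to 161 TPM, and ATG7 was the lowest in each group, with 3.32 to 7.06 TPM. TPM rests on an effective length, which takes more from short transcripts. It was 151 to 166 for ATG8 (354 bases) and 2275 to 2419 for ATG1 (2694 bases). The place of ATG8 in this order depends on that estimate. Of the CPM summed over the 10 genes, ATG41 made up 82.4% ± 0.860 (SD, n = 5) in S288c in YM with Cr41, against 32.2% ± 3.11 untreated. In S288c in WYF it made up 33.4% ± 2.21 with Cr41, against 17.3% ± 2.48 untreated. In RM11 its share was 47.1% ± 6.34 untreated and 48.2% ± 4.48 with Cr41 in YM, and 17.3% ± 1.34 and 11.9% ± 2.45 in WYF. The other 9 genes together went from 491 ± 58.4 CPM to 1223 ± 65.2 CPM in S288c in YM and from 508 ± 9.20 to 633 ± 21.1 CPM in RM11 in YM.

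A gene was called at a Benjamini-Hochberg adjusted p under 0.05 over all genes of the fit (edgeR) and a log2 fold change of at least 1 in size. Since this contrast may have chosen the 10 genes, their calls are set beside the share of all genes called, and nothing is read from them. With Cr41, 3 of the 10 (ATG41, ATG1 and ATG8) were called in S288c in YM, where 19.9% of 5716 genes were called. ATG41 alone was called in S288c in WYF, where 8.35% were called. No member reached a log2 change of 1 in size in RM11, where 1.66% of genes were called in YM and 1.65% in WYF. The median log2 fold change of the 10 was 0.83 in S288c in YM, 0.44 in S288c in WYF, 0.26 in RM11 in YM and 0.21 in RM11 in WYF, beside medians of all genes tested of -0.00, -0.01, 0.01 and -0.00. Treated and untreated libraries did not overlap for 8 of the 10 in S288c in YM (53.9% of all genes), 6 in S288c in WYF (36.3%), 4 in RM11 in YM (14.9%) and 2 in RM11 in WYF (24.1%), all of them higher with Cr41. Leaving out the RM11 libraries that stood apart, one at a time, left the RM11 counts at 4 and 2, and without untreated replicate 4 the count in S288c in WYF was 7, with ATG9 added. Calls near the threshold changed with single libraries. ATG13 in S288c in YM was called without untreated replicate 3 or treated replicates 4 or 5, and ATG29 without untreated replicate 4.

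**Figure D3:**
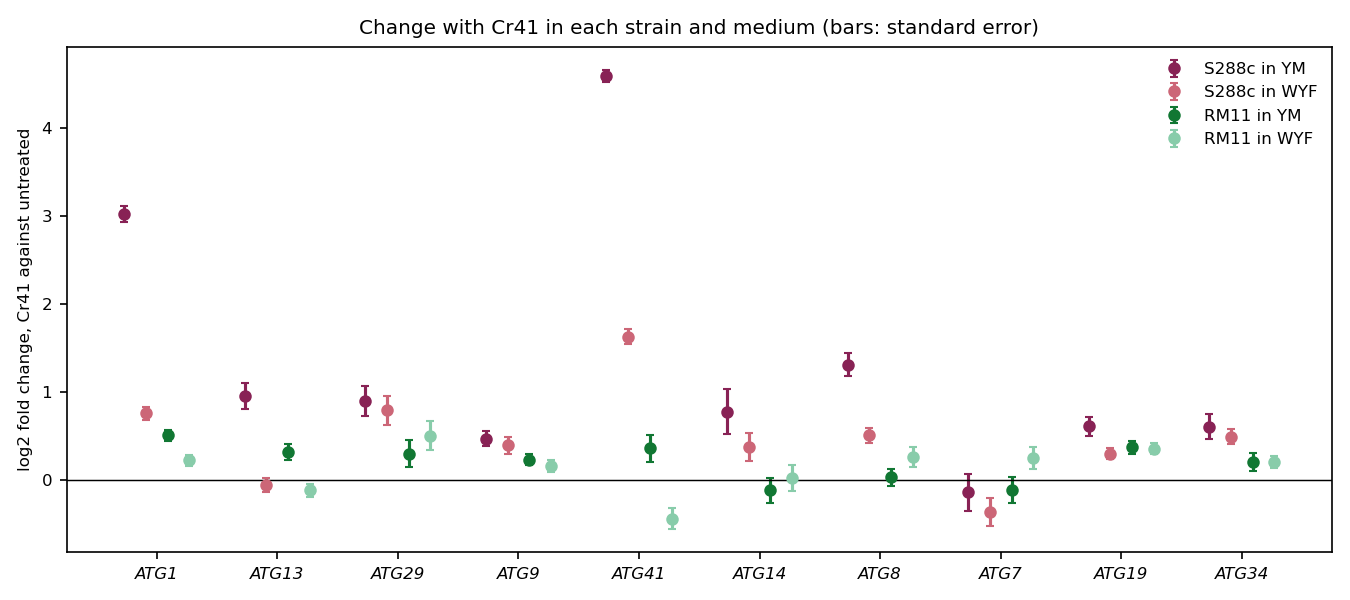
Log2 fold change with Cr41 against untreated for the 10 genes in each strain and medium, with bars of 1 SE from edgeR. ATG41 (4.59), ATG1 (3.02) and ATG8 (1.31) in S288c in YM and ATG41 in S288c in WYF (1.63) are the values above 1, and ATG41 in RM11 in WYF has the lowest value (-0.45).

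For the strains, the log2 change of RM11 with Cr41 was subtracted from that of S288c, in 1 fit of the 20 libraries of a medium. In YM this difference was 4.23 ± 0.20 for ATG41, 2.52 ± 0.10 for ATG1 and 1.28 ± 0.16 for ATG8, and these 3 were past the call threshold, as were 19.2% of all genes. ATG14 (0.90 ± 0.30), ATG13 (0.63 ± 0.17) and ATG29 (0.60 ± 0.24) followed, and ATG7 was at -0.03 ± 0.27. In WYF the difference was 2.08 ± 0.16 for ATG41, the one member past the threshold beside 7.55% of all genes, and 0.54 ± 0.10 for ATG1. The change in YM minus that in WYF, in fits of 1 strain, was 2.97 ± 0.12 for ATG41, 2.28 ± 0.12 for ATG1 and 1.01 ± 0.16 for ATG13 in S288c, and these 3 were past the threshold beside 9% of all genes. ATG13 lay at the threshold, and was under it without replicate 2 (the libraries of that number left out of all 4 groups) or replicate 5, and with DESeq2, RLE scaling, limma or no filter on low counts. In RM11 the largest such difference was 0.79 ± 0.21, for ATG41, and 0.739% of all genes were called. The comparisons within a strain and medium share no library with each other, while those between untreated groups use the same untreated libraries.

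Untreated S288c and RM11 differed in several of the genes, and differently in the 2 media. In YM, ATG41 stood at 232 ± 12.7 CPM in S288c against 463 ± 108 CPM in RM11, and ATG1 at 58.7 ± 6.44 CPM against 117 ± 3.03 CPM, with ratios of S288c to RM11 of 0.501 and 0.502. Of these ATG41 was just past the threshold and ATG1 just under it, so 1 of the 10 was called, beside 15.1% of all genes. The lowest ATG41 value of RM11 (293 CPM) is from the replicate 5 that stood apart in BTN2, and without it the log2 difference was -1.13 ± 0.07. Without replicates 2 or 3 of S288c or replicates 2, 3 or 4 of RM11, ATG41 fell under the threshold, with values of -1.13 to -0.93 over all single libraries left out, and it was also under it with DESeq2, RLE scaling, limma or 1 fit of all 40 libraries. ATG1 passed it without replicates 2, 3 or 4 of S288c or replicate 3 of RM11 (-1.04 to -0.95) and with no filter on low counts. ATG14 (-0.79 ± 0.21) and ATG8 (-0.54 ± 0.11) were also lower in S288c without overlap, and ATG19 was higher (0.54 ± 0.09). The groups did not overlap for 5 of the 10, beside 58.6% of all genes.

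In WYF the order of the strains was another. ATG19 was higher in S288c (229 ± 6.91 CPM against 115 ± 9.60 CPM, log2 0.99 ± 0.07), followed by ATG9 (0.61 ± 0.09) and ATG34 (0.28 ± 0.09), and these 3 did not overlap between the strains, beside 41.5% of all genes. ATG41 was at 0.40 ± 0.10 and ATG1 at -0.01 ± 0.08, both with overlap. None of the 10 was called, beside 10.8% of all genes, although ATG19 lay just under the threshold and was over it without S288c replicates 2, 4 or 5 or RM11 replicates 2, 3 or 4 and with DESeq2, RLE scaling or limma. Without RM11 replicate 2, which held S288c transcripts, ATG19 was at 1.01 ± 0.07 and the 3 genes still did not overlap. Without S288c replicate 4, ATG41 was at 0.47 ± 0.08 and did not overlap either.

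Added aromatic amino acids went with lower ATG41 in both strains when untreated, with the limit that lane and medium cannot be told apart. In RM11 the level in WYF was 101 ± 8.84 CPM against 463 ± 108 CPM in YM (log2 -2.22 ± 0.14), the 10th lowest of 5499 genes and the one member called, beside 1.89% of all genes. Without YM replicate 5 it was -2.35 ± 0.08, and without WYF replicate 2 it was -2.20 ± 0.16. In S288c it was -0.82 ± 0.09, or -0.74 ± 0.07 without WYF replicate 4, and none of the 10 was called, beside 4.07% of all genes. ATG1 stood in opposite directions in the strains, higher in WYF in S288c (0.55 ± 0.09) and lower in RM11 (-0.44 ± 0.06), both without overlap. ATG7 (0.76 ± 0.18), ATG34 (0.73 ± 0.13), ATG9 (0.53 ± 0.10) and ATG19 (0.51 ± 0.09) were higher in WYF in S288c, the first with overlap and the others without. In RM11, ATG34 was at 0.28 ± 0.10 and ATG8 at -0.37 ± 0.10, both with overlap. The media did not overlap for 5 of the 10 in S288c, beside 27.6% of all genes, and for 2 in RM11 (ATG41 and ATG1), beside 18.4%.

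The genes whose levels over the 40 libraries were most like those of ATG41 by Pearson correlation of log2 CPM were UGA3 (0.97), BSC5 (0.97), HIS4 (0.96), ARO5 (YGL117W, 0.96) and TMT1 (0.96). For ATG1 they were FMP23 (0.97), RTK1 (0.97), PKP2 (0.97), RTC2 (0.96) and LYS1 (0.95). All 40 points share the same libraries and depths and the 8 groups set most of their spread, so these values describe the pattern and carry no p. By Spearman correlation 4 of the 5 genes were the same for ATG41 and 3 of the 5 for ATG1. In S288c in YM with Cr41 the log2 fold change of these genes was 4.99 ± 0.12 for ARO5, 4.10 ± 0.09 for BSC5, 3.53 ± 0.08 for TMT1, 2.42 ± 0.07 for UGA3 and 1.81 ± 0.07 for HIS4. For the genes like ATG1 it was 5.56 ± 0.16 for FMP23, 3.55 ± 0.09 for RTC2, 3.19 ± 0.07 for PKP2, 2.29 ± 0.12 for LYS1 and 1.84 ± 0.08 for RTK1. This group is the highest for ATG41 and ATG1 and weighs on the choice, so these rises are no separate result. With Cr41 in RM11 in WYF, where ATG41 was at -0.45, the genes like it were at -0.20 ± 0.11 (UGA3) to 0.29 ± 0.14 (BSC5). In WYF against YM in untreated S288c, ATG1 was at 0.55 and FMP23 at 0.72 ± 0.26. The other genes like ATG1 were at 0.06 to 0.13 there.

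Among the 10, the level of ATG1 over the 40 libraries went most closely with that of ATG8 (Pearson 0.92) and ATG41 (0.87). ATG9 and ATG19 gave 0.93, and ATG9 and ATG34 gave 0.83. ATG7 went against ATG13 (-0.54) and ATG41 (-0.48). Within groups, after each group's mean was taken out, the value for ATG1 and ATG41 was 0.01, while that for ATG1 and ATG34 was 0.73 and that for ATG1 and ATG19 was 0.68. These too share libraries and depth and are given as a description.

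Of the 59 other autophagy genes, 58 could be tested in S288c in YM. With Cr41, 5 were called higher and none was called lower, beside 19.9% of all genes called. GLN3, a GATA factor of nitrogen supply, rose from 110 ± 7.83 to 317 ± 12.3 CPM (log2 1.49 ± 0.06, adjusted p 9.70e-10, edgeR). AMS1, the vacuolar alpha-mannosidase that Atg19 carries as cargo, rose from 29.2 ± 4.67 to 79.4 ± 12.8 CPM (1.40 ± 0.13, adjusted p 1.13e-06, edgeR). ATG38, a subunit of the Atg14 lipid kinase complex, rose from 10.7 ± 2.32 to 27.9 ± 2.81 CPM (1.35 ± 0.15, adjusted p 7.91e-06, edgeR). ATG39, the receptor for autophagy of the nuclear envelope, rose from 18.9 ± 2.57 to 46.1 ± 5.20 CPM (1.24 ± 0.11, adjusted p 7.83e-07, edgeR). GCN4, the activator of amino acid synthesis genes and itself known to be controlled mainly in translation, rose from 137 ± 12.8 to 295 ± 38.7 CPM (1.07 ± 0.09, adjusted p 4.49e-07, edgeR). Treated and untreated libraries did not overlap for any of these 5.

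By role, called genes in S288c in YM were 1 of 4 in the phosphatidylinositol 3-kinase complex, 1 of 7 among selective receptors, 1 of 4 among cargo and partner proteins and 2 of 22 among regulators. None was called among 3 scaffold genes, 7 of lipid transfer and membrane cycling, 5 of ubiquitin-like conjugation and 6 of vacuolar breakdown and efflux by edgeR, where 39 of the 58 had an unadjusted p under 0.05. Without the fold threshold, 28 of the 58 were higher and 10 lower at an adjusted p under 0.05, beside 67.3% of all genes. PRB1, the vacuolar proteinase B, was lower (1047 ± 116 to 548 ± 41.9 CPM, log2 -0.97 ± 0.08), as was the carboxypeptidase gene ATG42 (-0.93 ± 0.13), while the proteinase A gene PEP4 was at 0.58 ± 0.10. The scaffold gene ATG31 was at -0.34 ± 0.08 and VPS30, shared by both lipid kinase complexes, at -0.46 ± 0.13. The median log2 fold change of the 58 was 0.17.

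In S288c in WYF, 2 of 58 were called higher with Cr41 and none lower, beside 8.35% of all genes. Without the fold threshold, 19 of the 58 were higher and 8 lower at an adjusted p under 0.05 (edgeR), beside 48.1% of all genes. The called genes were ATG39 (30.3 ± 4.13 to 62.5 ± 4.88 CPM, log2 1.02 ± 0.10, adjusted p 1.45e-06, edgeR) and AMS1 (78.7 ± 1.95 to 162 ± 16.4 CPM, log2 1.02 ± 0.07, adjusted p 8.45e-08, edgeR). Both lay close to the threshold of 1, and the count was 0 with limma or without Cr41 replicate 2, and 1 without untreated replicates 1 or 2 or Cr41 replicate 1. In RM11 none of 58 was called in YM and none of 59 in WYF by edgeR, DESeq2 or limma. Of all genes, 1.66% and 1.65% were called by edgeR, and 12 and 26 of the listed genes had an unadjusted p under 0.05 in edgeR. AMS1 was at 0.46 ± 0.08 and 0.72 ± 0.07 there, without overlap in either medium, and ATG39 at 0.03 ± 0.11 and 0.21 ± 0.11.

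**Figure D4:**
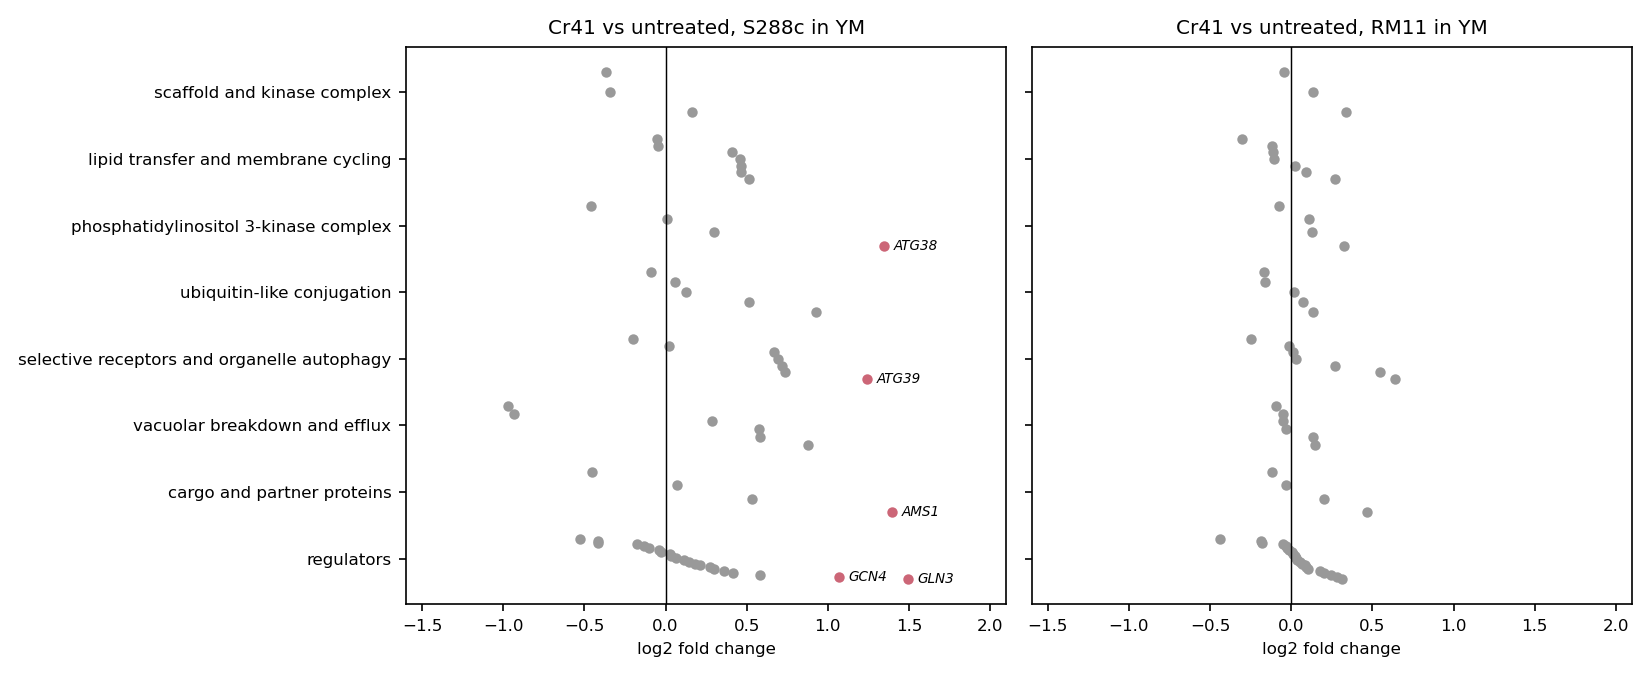
Log2 fold change with Cr41 in YM of the other autophagy genes, one point per gene in rows by role, for S288c (left) and RM11 (right), with called genes in red and named. In S288c 5 genes are called, from GCN4 (1.07) to GLN3 (1.49), and in RM11 none is.

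The difference between the strains in the change with Cr41 was tested for these genes in the same fits as above. In YM, 7 of 59 passed, all with a larger value in S288c, beside 19.2% of all genes. They were ATG10 (1.26 ± 0.52), ATG39 (1.21 ± 0.15), GLN3 (1.17 ± 0.09), GCN4 (1.10 ± 0.16), ATG5 (1.08 ± 0.42), ATG38 (1.03 ± 0.29) and ATG40 (1.002 ± 0.31). ATG10 and ATG5 act in attaching Atg12 to Atg5, and ATG40 is a receptor for the endoplasmic reticulum. ATG10 and ATG40 were at a few CPM, and the count was 4 without replicate 3 and 1 with limma. In each strain's own comparison in YM, 5 of the 6 genes of ubiquitin-like conjugation passed the filter on low counts. Those 5 reached at most 0.93 in S288c and at least -0.17 in RM11, which cannot give the value of ATG10. ATG10 was therefore left out by the filter in at least 1 of these comparisons. In WYF, ATG36, the receptor for peroxisomes, was the one gene of the 59 past the threshold, beside 7.55% of all genes. Its value was lower in S288c (-1.03 ± 0.16, adjusted p 2.40e-05, edgeR), and none of the 59 passed without replicate 5 or with DESeq2. The change in YM minus that in WYF passed in S288c for ATG38 (1.39 ± 0.21), GLN3 (1.25 ± 0.09) and ATG5 (1.21 ± 0.41), beside 9% of all genes. In RM11 it passed for none of 59 by edgeR, DESeq2 or limma, beside 0.739% of all genes in edgeR, with 11 at an unadjusted p under 0.05 there.

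Between untreated groups few of the other genes were called. In WYF, ATG39 was higher in S288c than in RM11 (30.3 ± 4.13 against 14.4 ± 0.931 CPM, log2 1.08 ± 0.10, adjusted p 2.07e-06, edgeR), beside 10.8% of all genes called. In YM none of 58 was called between the strains by edgeR, beside 15.1% of all genes, with 39 at an unadjusted p under 0.05. By DESeq2 and by limma 1 was called. Single libraries moved the edgeR count between 0 and 3, the latter without S288c replicate 4. Between the media, AMS1 (1.42 ± 0.10) and the stress factor gene MSN4 (1.04 ± 0.09) were higher in WYF than in YM in S288c, beside 4.07% of all genes called. Without YM replicate 5 there was 1 left. In RM11 none of 59 was called by edgeR, DESeq2 or limma, beside 1.89% of all genes in edgeR, with 26 at an unadjusted p under 0.05 there.

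ICY1 is no member and was set beside ATG41. It rose from 57.1 ± 4.68 to 219 ± 32.3 CPM in S288c in YM with Cr41 (log2 1.90 ± 0.09, adjusted p 5.34e-09, edgeR), and it was at 0.90 ± 0.11 in S288c in WYF, 0.22 ± 0.08 in RM11 in YM and 0.14 ± 0.06 in RM11 in WYF. The difference between the strains in YM was 1.68 ± 0.13 (adjusted p 5.72e-10, edgeR). Untreated ICY1 was lower in S288c than in RM11 in YM (-0.83 ± 0.07) and lower in WYF than in YM in RM11 (-0.71 ± 0.07), in both cases without overlap. In S288c it was at 0.36 ± 0.12 in WYF against YM, where ATG41 was at -0.82, and with Cr41 in RM11 in WYF ATG41 was at -0.45, so the signs of the paralogs were opposite in these 2 comparisons. The ICY1 groups overlapped in both. The lowest ICY1 value of untreated S288c in WYF (52.5 CPM) was that of replicate 4, which stood apart.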

How the data were processed

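The 40 RNA-seq libraries were made from hot phenol RNA with a ScriptSeq yeast kit and read as pairs. The authors estimated transcript counts with Salmon 0.13.1 against the S288c transcriptome for both strains, and the estimated counts (expected counts) were deposited without normalization. The authors also deposited TPM, which Salmon derives from the count and effective length of a transcript. Between 472 and 652 values per library were not whole, and counts were rounded.

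The 10 genes and the lists of other autophagy genes were chosen with earlier results of these data known, and the lists were written by role from general knowledge. Counts were fitted with edgeR 4.0.16 under R 4.3.3 (TMM scaling, genes kept by filterByExpr, quasi-likelihood F test, Benjamini-Hochberg adjustment over all genes of a fit), each comparison on its own 10 libraries and differences of changes on 20. Calls needed an adjusted p under 0.05 and a log2 fold change of at least 1 in size. The genes named are the 10, the listed genes that were called or given as examples of their role, the paralog ICY1 and the 5 genes most like ATG41 and ATG1. The examples that were not called were chosen after their values were seen.

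Of 6661 transcripts, 5993 matched the R64 annotation by systematic name. Depth was 4224350 to 7866044 counts, which sets the sampling noise of low genes. No pair of replicates agreed within sampling noise (chi-square per degree of freedom 2.31 to 63.1 over 80 pairs). Alternatives were DESeq2 1.42.0, limma 3.58.1 on log2(TPM + 1), RLE scaling, no filter on low counts, a replicate block, 1 fit of 40 libraries, no fold threshold, Spearman correlation and each replicate left out. The fit was tested on simulated data.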

Additional observations from a re-analysis of the deposited data

Results flagged for a closer look

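In S288c in YM with Cr41, replicate 5 had an ATG8 level of 77.8 CPM, apart from the other 4 libraries at 56.3 to 62.0 CPM. It was the one value apart among 80 sets of 5 libraries examined, where chance gives about 1 in 20.

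The change with Cr41 in YM was larger in S288c than in RM11, by a test of the difference, for GCN4 (1.10 ± 0.16 on the log2 scale, adjusted p 8.26e-06, edgeR), GLN3 (1.17 ± 0.09, adjusted p 7.29e-10) and ATG39 (1.21 ± 0.15, adjusted p 6.14e-07). It was also larger in S288c for ATG38 (1.03 ± 0.29, adjusted p 0.00517, edgeR), ATG40 (1.002 ± 0.31, adjusted p 0.0105), ATG5 (1.08 ± 0.42, adjusted p 0.0333) and ATG10 (1.26 ± 0.52, adjusted p 0.0476). ATG10 and ATG40 were at a few CPM, and ATG10 did not pass the filter on low counts in every comparison of a single strain. Of all genes, 19.2% were called in this test, and the count of listed genes was 4 to 7 with single replicates left out and lower with limma. In WYF the difference was -1.03 ± 0.16 for ATG36 (adjusted p 2.40e-05, edgeR), beside 7.55% of all genes called. ATG36 was close to the threshold, and was not called with DESeq2, with RLE scaling or without replicate 5. Within S288c the change with Cr41 was larger in YM than in WYF for ATG38 (1.39 ± 0.21, adjusted p 1.55e-05, edgeR), GLN3 (1.25 ± 0.09, adjusted p 2.94e-10) and ATG5 (1.21 ± 0.41, adjusted p 0.0222).

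Untreated ATG1 was higher in WYF than in YM in S288c (0.55 on the log2 scale) and lower in RM11 (-0.44), with every library of each strain on its side. The difference between the strains was not tested, since ATG1 was chosen on these data.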

How the results depend on the processing

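Of 1732 alternative values of single genes, 20 moved by more than the spread. A reversal could be counted only where the main value was called, and none of those turned its sign. Turns of sign in values that were not called, such as those of ATG8 and ATG1 given above, were not counted. Without the fold threshold more genes passed. With Cr41 these were 9 members and 38 other genes in S288c in YM (67.3% of all genes), 7 and 27 in S288c in WYF (48.1%), 4 and 6 for RM11 in YM (15.3%), and 5 and 20 for RM11 in WYF (35.6%). Between strains they were 7 and 38 in YM (71.6% of all genes) and 5 and 37 in WYF (54.1%), between media 6 and 28 in S288c (40.6%) and 4 and 22 in RM11 (26.4%). For differences of changes they were 6 and 35 (strains, YM, 54.2% of all genes), 4 and 15 (strains, WYF, 35.1%), 4 and 18 (media, S288c, 41.0%), and 3 and 3 (media, RM11, 11.2%).

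Between strains in YM, 0 members were called with DESeq2, RLE scaling, limma and 1 fit of 40 libraries and 2 with no filter, while 1 other gene was called with DESeq2, no filter, limma and the 40-library fit. Between strains in WYF, 1 member was called with DESeq2, RLE scaling and limma. Limma gave 0 other genes in S288c in WYF with Cr41, and 1 for the difference between strains in YM. That difference in WYF was called for 0 other genes with DESeq2 and RLE scaling. Leaving out single replicates gave 0 to 2 members and 0 to 3 other genes between strains in YM, 0 to 1 members between strains in WYF, 0 to 2 other genes in S288c in WYF with Cr41, 1 to 2 between media in S288c, and for differences between strains 4 to 7 other genes in YM and 0 to 1 in WYF. The cause was not tested.

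Limma on TPM shifted the median log2 change of all genes to -0.14 in S288c in YM, where 42.1% of its calls were higher against 55.6% in edgeR. The replicate block left 0 members called between strains in YM and changed no other count by over 1.5 times. Deviations of libraries with the same number correlated at over 0.1 for 3 of 5 pairs in S288c in YM (-0.33 to 0.55) and 3 of 5 between strains in YM (-0.36 to 0.29), and for 0 to 2 of 5 in the other comparisons. Since some pairs missed 0.1 in each comparison and the labels give the numbers no meaning, the numbers were not taken to pair the libraries. By Spearman correlation 3 of the 5 genes most like ATG1 were kept. Depth limits ATG7, ATG14 and ATG29, at 25 to 174 counts.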
